A study of Mus musculus with 6 samples.

Results

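The miR-25/92 seed family comprises the mature miRNAs whose bases 2 to 8, the seed, read AUUGCAC. Members were chosen by name, as mmu-miR-25-3p, mmu-miR-92a-3p, mmu-miR-92b-3p, mmu-miR-363-3p and mmu-miR-32-5p, and all 5 were among the 451 mature miRNAs listed. Their levels were compared between mouse T cell blasts (n = 3 libraries) and the small extracellular vesicles (small EVs) released into the same kind of culture (n = 3 libraries), to find out whether the members of a family with a common seed pass into small EVs alike. Both groups came from wild-type C57BL/6 mice of 8 to 12 weeks. Spleen cells were freed of red cells, stimulated with the mitogen concanavalin A at 2 µg/ml for 36 h and expanded with IL-2 at 50 U/ml in medium with serum depleted of exosomes. Small EVs were pelleted from day 6 supernatants at 100000 g after slower spins that remove cells and larger particles, so the pellet is defined by sedimentation and not by a vesicle marker. The libraries of each group carry the numbers 1, 2 and 5. The labels do not say whether a number stands for a separate mouse or culture. The study describes its sequencing of cells and exosomes as 3 independent experiments, without saying how they relate to mice. The p-values below measure the spread between these libraries.

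A miRNA guides an Argonaute protein to messenger RNAs that hold a match to its seed, mostly in the 3′ untranslated region, and lowers their translation and stability. miRNAs with a common seed therefore share most of their predicted targets, while the bases after the seed differ. In lymphocytes the best known relatives of this family are the other products of the miR-17~92 cluster, which favour proliferation and survival through targets such as Bcl2l11, which encodes the pro-apoptotic protein BIM. miRNAs are also released from T cells inside small EVs, and the EV content of a miRNA need not follow its level in the parent cell.

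The mature sequences are shown because the members share a seed and differ elsewhere, so a probe or an aligner separates them by the bases after it. They were taken from RefSeq (GRCm38.p6) and are written 5′ to 3′ with the seed in capitals.
mmu-miR-92a-3p: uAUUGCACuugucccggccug
mmu-miR-25-3p: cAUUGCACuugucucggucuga
mmu-miR-92b-3p: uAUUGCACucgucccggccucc
mmu-miR-363-3p: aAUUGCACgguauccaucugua
mmu-miR-32-5p: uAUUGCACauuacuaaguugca
Over the 21 bases of mmu-miR-92a-3p, counted from 1 at the 5′ end, mmu-miR-25-3p differed by U1C, C14U and C18U and so was identical at 18 positions. mmu-miR-92b-3p differed from it by U10C and G21C and was identical at 19 positions. mmu-miR-32-5p was identical at 11 of the 21 positions and mmu-miR-363-3p at 10, in both cases with 3 of the 13 bases after the seed in common. Set against mmu-miR-92a-3p, 2 members were thus near-identical and 2 shared little beyond the seed. The split was less sharp between other members. After the seed, mmu-miR-25-3p matched mmu-miR-92b-3p at 9 of 14 bases and mmu-miR-32-5p at 6 of 14. The RefSeq table had 6 mouse miRNAs with this seed, and the one outside the listed 5 was mmu-miR-367-3p.

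The members derive from several transcription units (GRCm38). mmu-miR-25-3p is encoded at chr5:138165332-138165353 on the minus strand, inside the protein-coding gene Mcm7, a subunit of the replicative helicase, and belongs with mmu-miR-93-5p and mmu-miR-106b-5p to the miR-106b~25 cluster. mmu-miR-92a-3p has 2 genomic copies, 1 at chr14:115044476-115044496 on the plus strand in the non-coding host gene Mir17hg (the miR-17~92 cluster) and 1 at chrX:52741854-52741874 on the minus strand in the cluster that begins with miR-106a, and their reads cannot be told apart. mmu-miR-363-3p lies beside the second copy, at chrX:52741697-52741718 on the minus strand. mmu-miR-92b-3p stands alone at chr3:89227126-89227147 on the minus strand, and mmu-miR-32-5p lies at chr4:56895272-56895293 on the minus strand in an intron of Tmem245.

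Sequences complementary to the seed, GTGCAAT in the messenger, were looked for in the 3′ untranslated region of Bcl2l11, because this gene is a target that the study followed in recipient B cells. The stretches around the matches are shown with the match in capitals.
Bcl2l11, first match (chr2:128161164-128161185, plus strand): aaatgtctctGTGCAATtgtgt
Bcl2l11, second match (chr2:128162439-128162460, plus strand): cactgtacctGTGCAATactgc
The longest 3′ untranslated region that GENCODE annotates for Bcl2l11 held 2 matches. Among regions within 20% of the same length, 17.6% of 1420 held at least 1 match, against 6.56% of all 21022 regions. A match is a description of the letters and not a measured binding site, and since all 5 members share the seed it does not separate them.

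The deposited values were normalised read counts, scaled to library size (CPM) and between libraries, and each value was a whole multiple of 1 read's worth, so that read numbers could be recovered. The blasts gave 236432 to 279737 miRNA reads per library and the small EVs 261393 to 463498, and 3 reads were worth 6.28 to 14.4 CPM. Lymphoid miRNAs chosen as markers (7 of 7 listed) summed to 89252 to 110719 CPM in blasts and 73598 to 99072 CPM in small EVs and were present in every library. Of these 7, 4 were called higher in small EVs and 2 lower, so single lymphoid miRNAs also differed between groups. Markers of other cells were higher in the EV group. Red cell miRNAs (6 of 7 listed, all 6 called higher) summed to 246 to 258 CPM in blasts and 1219 to 1863 CPM in small EVs, and stromal and endothelial miRNAs (7 of 10 listed, all 7 called higher) to 214 to 273 CPM and 1142 to 1655 CPM. Over all listed miRNAs 21.1% were called higher. However, 4 of the red cell and 4 of the stromal and endothelial miRNAs had no reads in any blast library. The authors' filter asked for 1 CPM in at least 3 libraries. These miRNAs could be listed only through the small EV libraries, so their direction was fixed in advance. The defining red cell miRNA mmu-miR-451a had no reads in blasts and 14, 4 and 4 reads in small EVs, whereas stromal mmu-miR-143-3p had 1, 2 and 0 reads in blasts and 306, 319 and 132 in small EVs. Of the myeloid pair, mmu-miR-223-3p was listed, at 0 to 3.67 CPM in blasts and 15.3 to 20.9 CPM in small EVs. Among blasts it was read in library 2 only, so it too passed the filter largely through small EVs. In bulk RNA of the blasts, more cells of a type and more RNA per cell cannot be told apart. The small EV group is a pellet from culture supernatant, so marker levels there do not count cells. The source of these marker miRNAs, and whether it contributed to the family's values, was not tested.

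mmu-miR-92a-3p was the most abundant miRNA on average in both groups. In blasts 1, 2 and 5 it stood at 165829, 155264 and 138747 CPM, and in small EVs 1, 2 and 5 at 144320, 132070 and 140234 CPM. The ranges overlapped, since the lowest blast library lay below the highest small EV libraries. It made up 16.1%, 15.1% and 12.3% of all listed reads in blasts and 14.9%, 13.9% and 15.5% in small EVs, and ranked first in every library except blasts 5, where it had rank 3.

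mmu-miR-25-3p, the member whose transfer to B cells the study examined, was the second most abundant. Its level was 9769, 9081 and 7509 CPM in blasts 1, 2 and 5, and 13071, 12523 and 15847 CPM in small EVs 1, 2 and 5. All 3 small EV libraries lay above all 3 blast libraries, which held for 20.4% of all listed miRNAs, and the number 5 libraries held both the lowest blast value and the highest small EV value. These levels rested on 1569 to 2608 reads in blasts and 4564 to 6240 in small EVs. From its own sequencing of cells and EVs, the study had already reported mmu-miR-25-3p as more abundant in EVs (unpaired t test). It also cautioned that small RNA protocols favour particular miRNAs, which bears on such enrichment values.

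The remaining members were far scarcer. mmu-miR-363-3p, the X-linked member, was at 1000.2, 894 and 914 CPM in blasts 1, 2 and 5 and at 987, 976 and 1194 CPM in small EVs 1, 2 and 5. mmu-miR-92b-3p was at 333, 414 and 397 CPM in blasts, against 358, 413 and 458 CPM in small EVs. For both, the small EV library number 5 was the highest of the 6 and the groups overlapped. For mmu-miR-32-5p, 5, 8 and 19 reads in blasts and 26, 19 and 7 reads in small EVs gave levels of 18.7, 29.3 and 90.9 CPM and of 54.5, 41.5 and 24.3 CPM. Its libraries followed no group order, with the highest value in blasts 5 and the lowest in blasts 1.

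**Figure D1:**
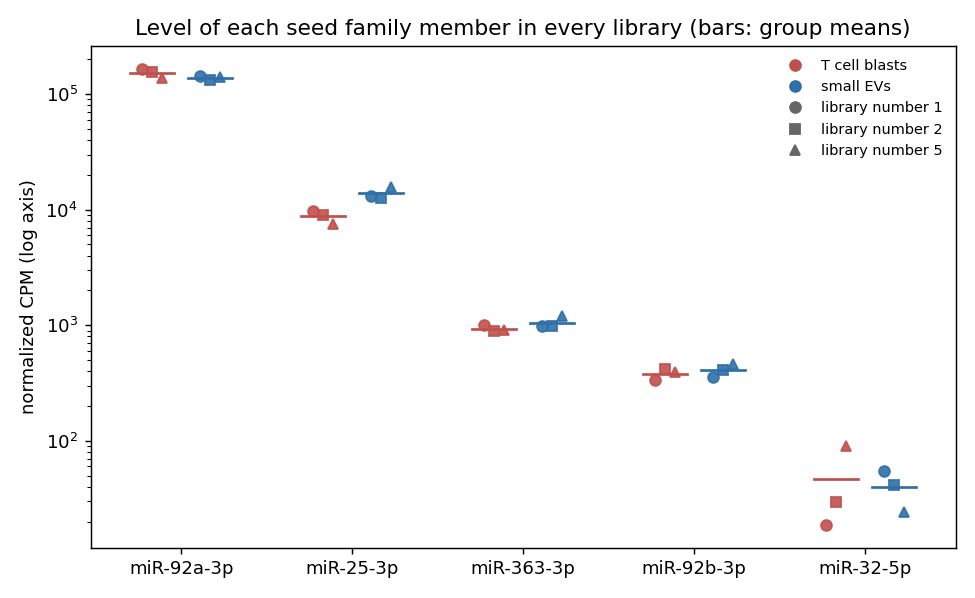
Level of each family member in the 3 T cell blast and 3 small EV libraries, as normalised CPM on a log axis, with 1 point per library (shape by library number) and the group means as lines. The members keep 1 order in all 6 libraries, from mmu-miR-92a-3p at 132070 CPM or more to mmu-miR-32-5p at 90.9 CPM or less, and the small EV points clear the blast points for mmu-miR-25-3p alone.

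The order mmu-miR-92a-3p, mmu-miR-25-3p, mmu-miR-363-3p, mmu-miR-92b-3p and mmu-miR-32-5p held in all 6 libraries, and the ranges of neighbours in that order did not overlap. The sequences are of nearly equal length (21 or 22 bases), but adaptor ligation favours some ends over others, and levels of different miRNAs were therefore ordered and not tested.

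Of the 5 members, 1 passed the test between groups and it was higher in small EVs, a share close to the 21.1% of all 451 miRNAs that were called higher (12.4% were called lower, limma on log2(CPM + 1), adjusted p under 0.2). Over all miRNAs the 95 higher and 56 lower calls became 81 and 78 when libraries were rescaled to the miRNAs under 5% of every library. mmu-miR-25-3p rose from 8786 ± 1159 to 13813 ± 1782 CPM (SD, n = 3 each), a ratio of means of 1.57. Its log2 difference was 0.65 (SE 0.16, 95% interval 0.29 to 1.02, limma adjusted p = 0.0253). By number, the ratio of small EVs to blasts was 1.34 for number 1, 1.38 for number 2 and 2.11 for number 5. An exact two-sided permutation test on the same values gave p = 0.1, the smallest that 3 libraries against 3 allow.

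The other 4 members did not pass. mmu-miR-92a-3p averaged 153280 ± 13649 CPM in blasts and 138875 ± 6237 CPM in small EVs (SD, n = 3), a log2 difference of -0.14 (SE 0.14, interval -0.47 to 0.20, limma adjusted p = 0.603). For mmu-miR-363-3p the means were 936 ± 56.2 and 1052 ± 123 CPM, a log2 difference of 0.16 (SE 0.14, interval -0.16 to 0.49, adjusted p = 0.520 by limma). For mmu-miR-92b-3p they were 382 ± 42.6 and 409.8 ± 50.1 CPM, a difference of 0.10 (SE 0.17, interval -0.29 to 0.50, limma adjusted p = 0.760). The upper bounds of these 3 intervals, 0.20, 0.49 and 0.50, lay below the 0.65 of mmu-miR-25-3p. Its own interval, 0.29 to 1.02, overlapped those of mmu-miR-363-3p and mmu-miR-92b-3p. The calls of 2 of these members depended on the scaling. Rescaled to an equal sum per library, which moved the median of all miRNAs from 0.02 to 0.19, mmu-miR-92a-3p turned to 0.03 and mmu-miR-363-3p was called higher (0.34, limma adjusted p = 0.189), and rescaled to miRNAs under 5% of every library, which moved that median to -0.14, mmu-miR-92a-3p was called lower (-0.31, limma adjusted p = 0.186) and mmu-miR-363-3p was at -0.01. mmu-miR-32-5p averaged 46.3 ± 39.0 and 40.1 ± 15.1 CPM, and its difference of 0.04 had an interval from -1.37 to 1.45 (SE 0.61, limma adjusted p = 0.977), so that neither sign was resolved. Its blast libraries differed beyond counting error, since the 95% Wilson interval of its share of family reads was 0.00452% to 0.0248% in blasts 1 and 0.0394% to 0.0962% in blasts 5. Leaving out the number 5 libraries of both groups, an alternative chosen after seeing the data, put mmu-miR-32-5p at 0.99 (limma adjusted p = 0.161). The median log2 difference of the 5 members was 0.10, beside 0.02 over all 451 miRNAs, and turned to -0.070, beside -0.14, under the rescaling to miRNAs under 5% of every library.

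Because mmu-miR-92a-3p carried most of the family, the family as a whole behaved like that member. Its total was 176950, 165683 and 147659 CPM in blasts 1, 2 and 5 and 158790, 146023 and 157758 CPM in small EVs 1, 2 and 5. The ranges overlapped and the means, 163431 ± 14775 and 154190 ± 7092 CPM (SD, n = 3), had a ratio of 0.943 (log2 difference -0.081, and 0.093 when rescaled to an equal sum). As a share, the family took 15.4% ± 2.13 of all listed reads in blasts and 16.4% ± 0.982 in small EVs. Without mmu-miR-92a-3p, the total of the other 4 members was 11122, 10419 and 8911 CPM in blasts, against 14470, 13953 and 17524 CPM in small EVs. Here every small EV library lay above every blast library, and the ratio of means was 1.51, a total that mmu-miR-25-3p in turn dominated.

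Shares within a library do not depend on the scaling between libraries. mmu-miR-25-3p made up 5.52%, 5.48% and 5.09% of the family's reads in blasts 1, 2 and 5 and 8.23%, 8.58% and 10.0% in small EVs 1, 2 and 5. The groups did not overlap, and the mean share went from 5.36% ± 0.241 to 8.95% ± 0.963 (SD, n = 3). The share of mmu-miR-92a-3p was correspondingly lower, at 93.7%, 93.7% and 94.0% in blasts and 90.9%, 90.4% and 88.9% in small EVs. mmu-miR-363-3p held 0.565%, 0.540% and 0.619% of family reads in blasts and 0.621%, 0.669% and 0.757% in small EVs, groups that were separated by a narrow gap. For each of these 3 shares the exact permutation test gave p = 0.1, the smallest possible. The shares of mmu-miR-92b-3p (mean 0.236% and 0.266%) and mmu-miR-32-5p (0.0300% and 0.0260%) overlapped between groups. Once mmu-miR-92a-3p was set aside, mmu-miR-25-3p went from 86.4% to 90.2% of the remaining reads, while mmu-miR-363-3p went from 9.28% to 6.88%, mmu-miR-92b-3p from 3.81% to 2.68% and mmu-miR-32-5p from 0.490% to 0.271%.

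The ratio of 1 member to another within a library gave the same comparison pair by pair. Over the 10 pairs of members, the ratio did not overlap between groups in 4, a share close to the 38.1% of all 39903 pairs of miRNAs read in every library. For mmu-miR-25-3p over mmu-miR-92a-3p the ratio was 0.0589, 0.0585 and 0.0541 in blasts 1, 2 and 5 and 0.0906, 0.0948 and 0.113 in small EVs 1, 2 and 5. It was 1.73-fold higher in small EVs (log2 difference 0.79, SE 0.10, exact permutation p = 0.1). With 3 libraries against 3 no p over these pairs, adjusted or not, can fall under 0.1. mmu-miR-25-3p was also higher relative to the other members with more than a few reads. Its ratio to mmu-miR-363-3p was 9.77, 10.2 and 8.21 in blasts and 13.2, 12.8 and 13.3 in small EVs, 1.40-fold higher (log2 difference 0.49, SE 0.10). Its ratio to mmu-miR-92b-3p was 1.47-fold higher (0.55, SE 0.20), and both were at the smallest exact permutation p of 0.1. The ratio of mmu-miR-363-3p to mmu-miR-92a-3p was 1.23-fold higher (0.30, SE 0.11, exact permutation p = 0.1).

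mmu-miR-92b-3p and mmu-miR-92a-3p, which differ at 2 of 21 positions, overlapped in their ratio between groups. mmu-miR-92b-3p over mmu-miR-92a-3p was 0.00201, 0.00267 and 0.00286 in blasts 1, 2 and 5 and 0.00248, 0.00313 and 0.00327 in small EVs 1, 2 and 5, a log2 difference of 0.24 (SE 0.20, exact permutation p = 0.3). It was higher in small EVs within each of the 3 numbers. With same-numbered libraries taken as pairs, the exact paired permutation p was 0.25, the smallest that 3 pairs allow. The log2 difference of the ratio of mmu-miR-92b-3p to mmu-miR-363-3p was -0.06 (SE 0.16, exact permutation p = 0.7). The 4 pairs with mmu-miR-32-5p had standard errors of 0.77 to 0.90 and exact permutation p of 0.7 to 1, so these ratios were not resolved. Among 282 other miRNAs read in every library, 23.8% also had a ratio to mmu-miR-92a-3p that was higher in small EVs without overlap, and 2 of the 4 other family members, mmu-miR-25-3p and mmu-miR-363-3p, were of this kind.

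**Figure D2:**
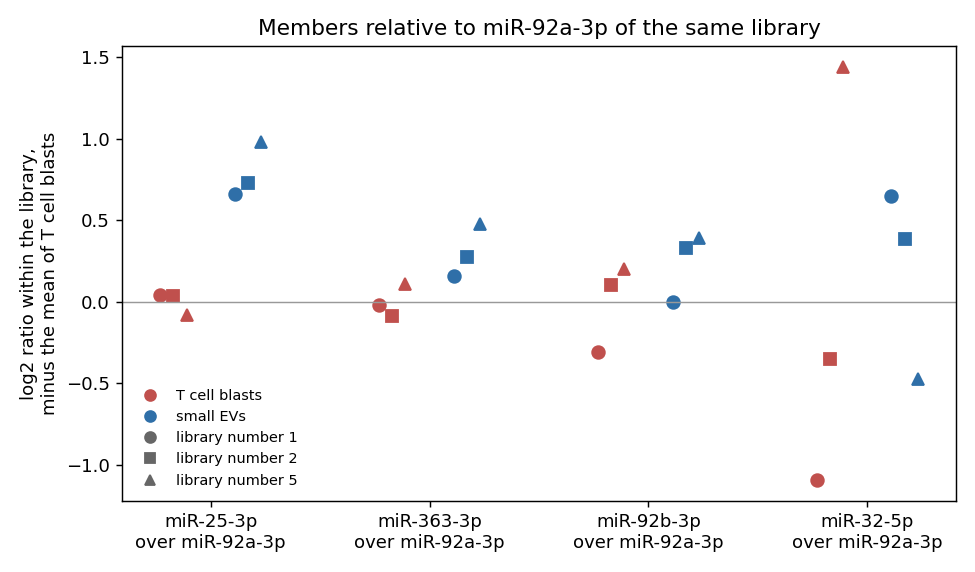
Log2 ratio of the other 4 members to mmu-miR-92a-3p within each library, less the mean of the T cell blasts, so that the blasts of each member centre on 0, with 1 point per library and its shape giving the library number. The small EV points of mmu-miR-25-3p lie on average 0.79 above its blast points without overlap, those of mmu-miR-363-3p 0.30, while the mmu-miR-32-5p points of both groups are spread across each other.

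Each member was next set beside the miRNAs cut from the same primary transcript, since a polycistronic transcript supplies its products together. Of 11 such ratios, 7 did not overlap between blasts and small EVs, beside 38.1% of all pairs. In the miR-106b~25 cluster, mmu-miR-25-3p over mmu-miR-93-5p was 1.78, 1.49 and 1.47 in blasts 1, 2 and 5 and 2.19, 2.08 and 2.85 in small EVs 1, 2 and 5. This ratio was 1.49-fold higher in small EVs (log2 difference 0.58, SE 0.17, exact permutation p = 0.1). mmu-miR-25-3p over mmu-miR-106b-5p was 17.6, 23.4 and 24.1 in blasts and 28.0, 34.5 and 51.3 in small EVs, 1.71-fold higher (0.77, SE 0.29, exact permutation p = 0.1). The partners carry the miR-17 seed family's sequence and did not pass the test themselves, with log2 differences of 0.08 for mmu-miR-93-5p and -0.12 for mmu-miR-106b-5p. mmu-miR-25-3p was the 1 miRNA of the cluster's 6 listed arms that was called higher in small EVs, and mmu-miR-25-5p was the 1 called lower, counts near the 21.1% and 12.4% of all miRNAs. At an equal sum per library 2 arms were called higher, beside 110 of all 451 miRNAs.

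In the miR-17~92 cluster, mmu-miR-92a-3p was lower in small EVs relative to some partners. Its ratio to mmu-miR-19a-3p, which carries the miR-19 seed, was 81.4 to 112 in blasts and 52.5 to 69.5 in small EVs, 0.651 times the blast value (log2 difference -0.62, SE 0.18, exact permutation p = 0.1). Its ratio to mmu-miR-20a-5p was 135, 144 and 153 in blasts and 120, 99.3 and 91.4 in small EVs, 0.716 times (-0.48, SE 0.13, exact permutation p = 0.1). These groups did not overlap. Ratios to mmu-miR-17-5p, mmu-miR-18a-5p and mmu-miR-19b-3p overlapped, with log2 differences of -0.11 (SE 0.16), 0.05 (SE 0.09) and -0.28 (SE 0.14). Of the cluster's 11 listed arms, 1 was called higher (mmu-miR-19a-3p, 0.48, limma adjusted p = 0.0454) and 2 lower (mmu-miR-92a-1-5p, and mmu-miR-19a-5p at -1.58 with limma adjusted p = 0.118, named here after its value was seen). The same fit called 21.1% of all miRNAs higher and 12.4% lower. When the replicate number was fitted as a block, 2 arms were called higher, and that fit called 23.5% of all miRNAs higher and 16.2% lower. Since the second mmu-miR-92a copy sits in the X-linked miR-106a cluster, these ratios mix 2 transcripts in the numerator, and the ratio to mmu-miR-19b-3p, which both clusters also encode, mixes them in the denominator as well.

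In the X-linked miR-106a cluster, mmu-miR-363-3p moved differently against each partner. Relative to mmu-miR-20b-5p it was 3.18, 2.65 and 2.69 in blasts and 2.03, 2.15 and 1.95 in small EVs, 0.722 times (log2 difference -0.47, SE 0.09), and relative to mmu-miR-106a-5p 0.837 times (-0.26, SE 0.09). Relative to mmu-miR-18b-5p it was 8.34, 6.59 and 6.16 in blasts and 11.5, 11.2 and 13.8 in small EVs, 1.73-fold higher (0.79, SE 0.16). All 3 ratios reached the smallest exact permutation p of 0.1, and the ratio to mmu-miR-19b-3p, whose reads come from both clusters, did not differ beyond its error (0.02, SE 0.15, exact permutation p = 0.9). The partners themselves differed in direction, with mmu-miR-20b-5p (0.63, limma adjusted p = 0.0363) and mmu-miR-106a-5p (0.42, limma adjusted p = 0.169) called higher in small EVs and mmu-miR-18b-5p (-0.62, limma adjusted p = 0.0640) called lower. Of the cluster's 9 listed arms, 2 were thus called higher and 1 lower, counts near the 21.1% and 12.4% of all miRNAs.

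**Figure D3:**
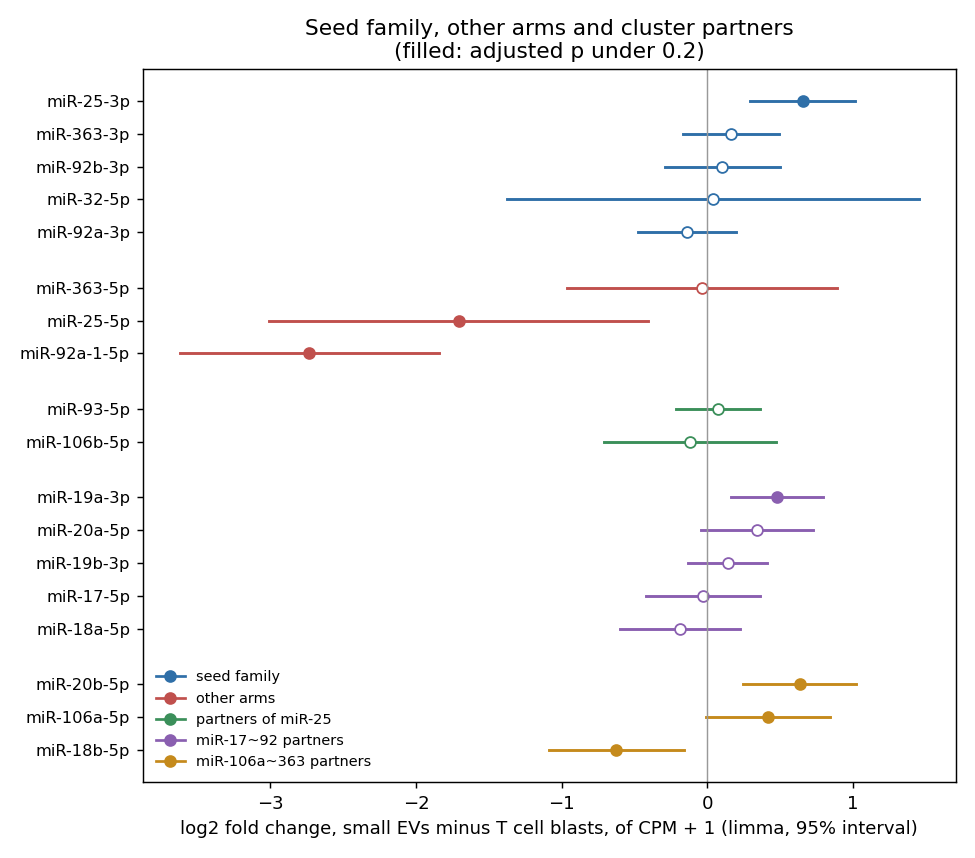
Log2 difference between small EVs and T cell blasts, with its 95% interval from limma (3 libraries per group), for the 5 family members, their cluster partners and 3 opposite arms of their hairpins (filled points passed the test). The interval of mmu-miR-25-3p runs from 0.29 to 1.02, those of the other 4 members cross 0, and mmu-miR-92a-1-5p lies at -2.73.

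Each hairpin also yields a second arm, which is mostly degraded when the first is loaded into Argonaute. Of these opposite arms, 4 were listed, and mmu-miR-92a-2-5p and mmu-miR-92b-5p were not. The arms that pair with the most abundant members are shown because they behaved unlike them.
mmu-miR-92a-1-5p: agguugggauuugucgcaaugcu
mmu-miR-25-5p: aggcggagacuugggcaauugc
mmu-miR-92a-1-5p, at chr14:115044437-115044459 (plus strand), was at 614, 455 and 249 CPM in blasts 1, 2 and 5 and 52.4, 48.0 and 90.3 CPM in small EVs 1, 2 and 5. Every small EV library lay below every blast library. The log2 difference was -2.73 (SE 0.38, limma adjusted p = 0.00299), in a fit that called 12.4% of all miRNAs lower. The share of all miRNAs separated without overlap in this direction is not given here. Expressed as a share of the reads of both arms, with mmu-miR-92a-3p reads from both genomic copies in the total, it was 0.369%, 0.292% and 0.179% in blasts and 0.0363%, 0.0364% and 0.0643% in small EVs, so that the mean share was 6.13 times higher in blasts (exact permutation p = 0.1). This opposite arm was thus lower in small EVs while mmu-miR-92a-3p overlapped between groups.

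mmu-miR-25-5p, at chr5:138165370-138165391 (minus strand), was likewise lower although mmu-miR-25-3p was higher. In blasts 1, 2 and 5 it had 27, 12 and 5 reads (101, 44.0 and 23.9 CPM), and in small EVs 1, 2 and 5 it had 7, 8 and 3 reads (14.7, 17.5 and 10.4 CPM). The groups did not overlap, with blasts 1 far above the other libraries, and the log2 difference was -1.71 (SE 0.56, limma adjusted p = 0.0695). The same fit called 12.4% of all miRNAs lower. This call was lost without the small EV library 5 (limma adjusted p = 0.206). Its share of both arms' reads was 1.02%, 0.482% and 0.318% in blasts and 0.112%, 0.139% and 0.0657% in small EVs, a mean 5.75 times higher in blasts (exact permutation p = 0.1).

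The opposite arm of mmu-miR-363 showed no such difference. mmu-miR-363-5p was at 52.4, 62.3 and 76.6 CPM in blasts, against 54.5, 39.3 and 108 CPM in small EVs, and its share of both arms' reads was 4.98%, 6.51% and 7.73% in blasts and 5.23%, 3.87% and 8.27% in small EVs. The groups overlapped for both measures (log2 difference -0.04, SE 0.40, limma adjusted p = 0.968). mmu-miR-32-3p had 2, 2 and 1 reads in blasts and 0, 0 and 1 in small EVs, under the floor of 3 reads per library in all 6, and no change is given for it.

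**Figure D4:**
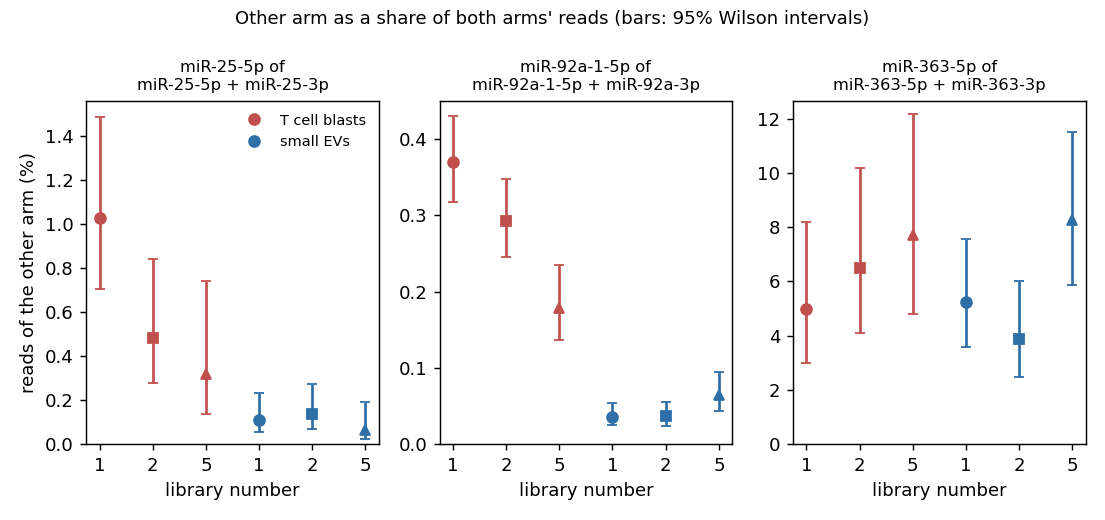
Reads of the opposite arm as a share of its reads and those of the member together (for mmu-miR-92a-3p, reads of both genomic copies), in percent on linear axes of different range that start at 0, with 1 point per library and its 95% Wilson interval (counting error only). For mmu-miR-25-5p and mmu-miR-92a-1-5p the 3 blast points lie above the 3 small EV points, and for mmu-miR-363-5p the groups overlap.

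Short motifs that have been tied to the sorting of miRNAs into EVs through RNA-binding proteins were searched on the miRNA strand of the 370 listed miRNAs with a RefSeq sequence. GGAG, the motif known from hnRNPA2B1 in human T cells, was held by 7.84% of them, and GGCU, known from SYNCRIP in mouse hepatocytes, by 11.6%. None of the 5 members held either sequence of letters. Among the opposite arms, mmu-miR-25-5p held GGAG.

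The miRNAs whose pattern over the 6 libraries was most like that of mmu-miR-25-3p were mmu-miR-374b-5p, mmu-miR-20b-5p and mmu-miR-20a-5p. The root mean square difference of their centred log2 levels from it was 0.0957, 0.145 and 0.169, the lowest of 152 candidates with a mean of at least 50 CPM. Of these, mmu-miR-374b-5p (log2 difference 0.69, limma adjusted p = 0.0530) and mmu-miR-20b-5p (0.63, limma adjusted p = 0.0363) were called higher in small EVs. The third, mmu-miR-20a-5p, was not called (0.34, limma adjusted p = 0.216). mmu-miR-92a-3p was most like mmu-miR-30d-5p (0.0586), mmu-miR-16-5p (0.0702) and mmu-miR-30e-5p (0.0726), none of which was called different between groups by limma. The points share libraries and scaling, and these likenesses are descriptions without a test.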

How the data were processed

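Small RNA libraries (NEBNext, single reads of 75 bp, Illumina) of 3 T cell blast and 3 small EV samples were analysed. Per the labels and the study's methods, the authors trimmed adaptors with cutadapt, dropped reads under 20 bases, aligned to mouse mature miRNAs of miRBase, estimated counts with RSEM (submitters' notes: CASAVA 1.8.2, BWA, RSEM 1.17), kept miRNAs with 1 CPM in at least 3 libraries and deposited CPM after TMM scaling with edgeR. This deposited signal was in whole multiples of 1 read's worth (3.75, 3.67 and 4.79 CPM in blasts 1, 2 and 5 and 2.09, 2.18 and 3.47 CPM in small EVs), and 100% of values gave whole reads within 0.05, so that shares and ratios used recovered reads.

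Groups were compared with limma 3.58.1 (R 4.3.3) with trend on log2(CPM + 1) over all 451 miRNAs, with Benjamini-Hochberg adjustment and a threshold of 0.2. The adjustment and threshold were those of the study, which tested counts with edgeR. Fold changes of scarce miRNAs are understated on that scale. Exact two-sided permutation tests served single values. edgeR 4.0.16 and DESeq2 1.42.0 on recovered reads, other pseudocounts, filters and scalings, and omission of each library were alternatives. The number of reads limits the precision of the scarce members. PCR copies are not independent molecules, so read numbers cover counting error only.

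Same-numbered blast and small EV libraries deviated together over 284 miRNAs (correlation 0.15, 0.16 and 0.34 for numbers 1, 2 and 5), and the fit with the replicate number as a block took them as pairs. Numbers 1 and 2 also correlated across each other (0.17 for blasts 2 with small EVs 1, and 0.11 for blasts 1 with small EVs 2). These values set number 5 apart but do not establish a pairing of numbers 1 and 2. The scripts were tested on simulated data. Members and lists (marker miRNAs, clusters, named genes) were chosen with earlier results of these data known. The named miRNAs were the members, their opposite arms, their cluster partners and the 3 closest patterns of the 2 most abundant members. Seed matches of 1 further gene are not reported here.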

Additional observations from a re-analysis of the deposited data

How the results depend on the processing

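mmu-miR-25-3p kept its direction and its call under all 18 alternatives run (log2 difference 0.44 to 0.83, limma, edgeR or DESeq2 adjusted p 0.000878 to 0.0934). Omitting each library in turn gave 0.54 to 0.73, and omitting number 5 in both groups, chosen after seeing the data, gave 0.44. With the replicate block, 106 miRNAs were called higher and 73 lower by limma, against 95 and 56 without it, mmu-miR-25-3p stayed called (limma adjusted p = 0.0186), 2 miR-17~92 arms were called higher instead of 1, and no call of a member or an opposite arm changed. The counts over all miRNAs were 61 higher at a mean of at least 10 CPM, and 58 higher and 29 lower at an adjusted p under 0.05.

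Each rescaling divided a whole library by 1 factor, so it moved all 5 members in the same direction, as it did all other miRNAs. It left mmu-miR-25-3p called. At an equal sum, the log2 difference was 0.035 for mmu-miR-92a-3p, 0.34 for mmu-miR-363-3p and 0.093 for the family total, and 3, 2 and 4 arms of miR-17~92, miR-106b~25 and the X-linked miR-106a cluster were called higher instead of 1, 1 and 2. Over all 451 miRNAs the higher calls likewise went from 95 to 110. Rescaled to miRNAs under 5% of every library, the differences were -0.31, -0.0076 and -0.25. Here 2 arms of miR-106b~25 and 2 of the miR-106a cluster were called lower instead of 1 each, and 3 of miR-17~92 instead of 2. The lists of miR-17~92 and the miR-106a cluster share mmu-miR-92a-3p, which was called lower here. In the miR-106a cluster 1 arm was called higher. Over all 451 miRNAs this rescaling moved the lower calls from 56 to 78 and the higher calls from 95 to 81. Median-of-ratios factors called 2 miR-17~92 arms higher, and 96 of all 451 miRNAs. Why these factors differed between the groups was not tested.

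Without mmu-miR-92a-3p the family total differed by 0.59, or by 0.77 as a share of all listed reads (chosen after seeing the data), and the shares of mmu-miR-363-3p, mmu-miR-92b-3p and mmu-miR-32-5p moved by -2.40, -1.13 and -0.22 points, since the total is then mostly mmu-miR-25-3p. mmu-miR-32-5p reached 0.99 without number 5 and ranged from -0.43 to 0.68 without single libraries, and mmu-miR-25-5p ranged from -2.19 to -1.17. Relative to the summed miRNAs outside the family, also chosen after seeing the data, mmu-miR-25-3p was higher by 0.84 and mmu-miR-363-3p by 0.35. Both were without overlap between groups, while mmu-miR-92b-3p, mmu-miR-32-5p and mmu-miR-92a-3p overlapped at 0.29, 0.24 and 0.050. The share of all miRNAs without overlap against this sum was not counted, so these separations have no background beside them. The value of mmu-miR-363-3p depended on the reference, since it was -0.0076 when rescaled to miRNAs under 5% of every library. mmu-miR-32-5p rested on 5 to 26 reads per library and mmu-miR-25-5p on 3 to 27.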
